A study of Mus musculus with 30 samples.

Results

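The Jun and Fos genes of the AP-1 family were followed across the 15 groups of an array study of stress responses in mouse embryonic fibroblasts (MEFs), which are cells grown from mouse embryos. The members were the probes whose gene name on the array was Jun, Junb, Fos, Fosb, Fosl1 or Fosl2, that is 6 of 21689 named genes and 9 of 41174 probes. Jun, Fos and Fosl1 had 1 probe each, and Junb, Fosb and Fosl2 had 2 each. Each of the 30 two-colour arrays set a treated sample (dye Cy5) against the same pool of 2 untreated cultures of wild type MEFs (dye Cy3), with 2 arrays a group and no dye swap. Values are log2 ratios of sample to pool, so that 0 is equal signal of sample and pool. Without a dye swap, a difference between the dyes at a probe is part of every test against the pool. It cannot be told apart there from a difference from untreated wild type cells.

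Wild type MEFs, which were immortalised, were stressed for 45 min with anisomycin, an inhibitor of translation (25 ng/ml), for 45 min with the cytokine TNFα (100 ng/ml), or for 45 min, 2 h or 8 h with NaCl (100 mM), which is hyperosmotic. The same 5 treatments were given after SB203580, an inhibitor of the p38α and p38β kinases, and a further group received SB203580 alone. For the inhibitor the sample titles state 10 mM and 2 h, whereas the treatment protocol and the study's methods state 10 µM, given 30 min before the stress, which is used here. All titles of the SB203580 groups, with and without stress, carry the same 2 h, and how long the cells with the inhibitor alone were exposed is not given otherwise, so they were not matched in time to each stress. Immortalised MEFs without p38α (p38α-/-, gene Mapk14) were either left untreated or stressed with anisomycin, with TNFα or with NaCl (2 h), and whether these cells are 1 clone was not stated. Replicates were independent experiments, and the pool was a single control sample, so the tests against it leave out its own spread.

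Mapk14 lay between -2.24 and -0.94 on the 8 arrays of p38α-/- MEFs and between 0.03 and 1.31 on the 22 arrays of wild type MEFs. All 12 fibroblast markers searched for (Col1a1, Vim and others) were well above background in the sample channel on all 30 arrays, and their median signal lay between -0.25 and 7.58 log2 units from the array median. The 7 leukocyte markers, from -0.96 to 3.18, were also above background on all arrays. The 2 of 6 epithelial markers matched by name lay at 0.14 and 0.93, and the 5 endothelial ones between -3.10 and 0.32. Feature Extraction marked between 6.78% and 44.8% of the spots of an array as outliers (median 16.0%).

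AP-1 is a dimeric transcription factor that binds the sequence TGANTCA. Jun proteins pair with each other or with Fos proteins through a leucine zipper, whereas Fos proteins need a Jun partner to bind DNA. Jun, Junb, Fos and Fosb are immediate early genes, transcribed within minutes of serum, cytokine or stress without new protein synthesis. Fosl1 (Fra-1) and Fosl2 (Fra-2) are usually induced later and their proteins lack the strong activation domain of Fos. The JNK, ERK and p38 kinases act on AP-1 both by phosphorylating its subunits and by activating the factors that occupy the Jun and Fos promoters.

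The 250 bases before the annotated start of Jun, Fos and Junb are shown because these were the members with the largest changes. They are from RefSeq on GRCm38.p6, in the direction of the gene, and capitals mark the motifs searched for on both strands. Windows for 5 of the 6 members were in the table used.
Jun, chr4:95052223-95052472, minus strand: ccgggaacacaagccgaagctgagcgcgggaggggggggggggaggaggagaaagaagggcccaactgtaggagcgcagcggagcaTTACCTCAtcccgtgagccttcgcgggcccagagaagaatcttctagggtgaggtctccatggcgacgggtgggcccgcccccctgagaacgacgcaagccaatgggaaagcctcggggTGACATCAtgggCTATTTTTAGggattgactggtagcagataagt
Fos, chr12:85473640-85473889, plus strand: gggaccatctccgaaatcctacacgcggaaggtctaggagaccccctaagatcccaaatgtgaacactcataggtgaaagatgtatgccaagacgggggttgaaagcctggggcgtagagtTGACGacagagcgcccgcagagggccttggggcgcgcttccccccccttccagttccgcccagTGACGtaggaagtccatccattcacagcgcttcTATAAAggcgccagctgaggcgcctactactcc
Junb, chr8:84978749-84978998, minus strand: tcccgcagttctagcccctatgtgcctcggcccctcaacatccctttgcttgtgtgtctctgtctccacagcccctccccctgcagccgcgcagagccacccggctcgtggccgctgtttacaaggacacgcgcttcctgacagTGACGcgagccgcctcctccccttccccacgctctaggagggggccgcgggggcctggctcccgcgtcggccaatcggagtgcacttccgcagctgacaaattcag
In the Jun window, counting back from -1 at the last base before the start, TTACNTCA lay from -164 to -157, TGACNTCA from -45 to -38 and a MEF2 site from -33 to -24. Both octamers are variants of the AP-1 and CRE sites through which Jun and ATF2 proteins act on the Jun gene. The Fos window held the short CRE core TGACG from -129 to -125 and from -66 to -62 and a TATA box from -33 to -28, and the Junb window held TGACG from -106 to -102. The canonical TGANTCA was in none of these 3 windows. Of 32851 windows of the same length over all genes, 2.86% held TTACNTCA, 7.49% TGACNTCA, 2.92% a MEF2 site, 17.8% TGACG, 12.4% the TATA box (TATAAA) and 6.75% TGANTCA. These are matches of letters, and binding was not measured here.

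The probes of a gene did not behave alike. Junb probe A_51_P159201 ranged from -0.34 to 2.98 over the 30 arrays, whereas A_51_P159194, listed for the same transcript, ranged from -0.56 to 0.69. Fosl2 probe A_52_P484903 ranged from -0.60 to 1.90 and A_51_P507242 from -1.21 to 0.61. The flat probes were the brighter ones, with log2 pool signals from 5.86 to 7.42 and from 6.15 to 7.62 above the array median, against 0.73 to 1.74 and 0.89 to 2.64 for the moving probes. The pool channel was saturated on 8 arrays for A_51_P159194 and on 13 for A_51_P507242, where the ratio is an upper limit. Of Fosb, A_51_P138378 ranged from -0.34 to 2.05 and A_52_P109010, which is listed for a different transcript record, from -0.83 to 0.60.

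**Figure D1:**
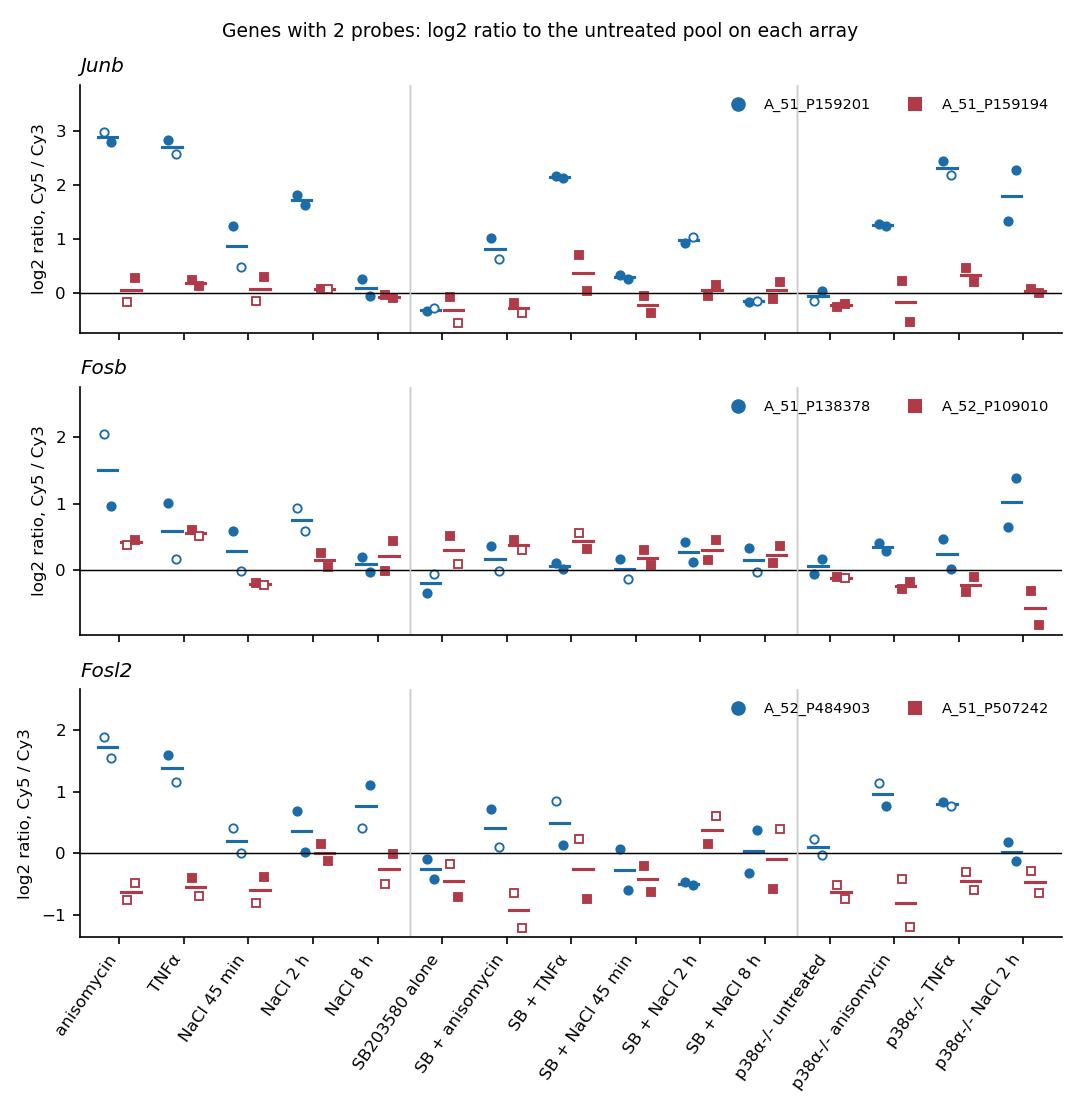
Log2 ratio to the pool (y axis) of both probes of Junb, Fosb and Fosl2 on each of the 2 arrays of the 15 groups (x axis). Points are arrays (open where a spot was marked as an outlier), short lines are group means, and the blue probe of each gene is the one that moved: Junb probe A_51_P159201 reached 2.98 while A_51_P159194 did not pass 0.69.

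Of the 270 values of these 9 probes, 68 were marked as outliers, among them 19 of 30 for Fosl2 probe A_51_P507242 and none for Jun. The 2 arrays of a group differed by a median of 0.31 where neither value was marked, 0.36 where 1 was marked and 0.35 where both were. All 9 probes were well above background in both channels on all 30 arrays. Both a gene fit and a probe fit are therefore given. In the gene fit marked spots were left out, probes were averaged and limma was run over all genes, and Jun was the only member measured on all arrays. In the probe fit, added after the data had been seen, all spots were used and probes were kept apart. A gene or probe was called when its p, adjusted by the Benjamini-Hochberg method over all genes or probes tested, was under 0.05. Standard errors (SE) are those of limma.

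Jun, the main partner of Fos proteins in AP-1, had the highest ratio of any member. Its log2 ratio was 6.21 and 5.85 on the 2 arrays of wild type MEFs with anisomycin, 3.43 and 3.74 with TNFα, 3.02 and 2.35 at 45 min of NaCl, 3.84 and 3.17 at 2 h and -0.46 and 0.13 at 8 h. The anisomycin arrays stood above all others, the TNFα and 2 h NaCl arrays overlapped, and the 8 h arrays lay on both sides of the pool. In RNA of whole cultures, more cells that express a gene and more RNA per cell cannot be told apart. Jun rose 65.3-fold with anisomycin (6.03 ± 0.22 (SE), adjusted p = 4.48e-12, gene fit), 12-fold with TNFα (adjusted p = 9.45e-09), 6.43-fold with NaCl at 45 min (adjusted p = 4.08e-06) and 11.4-fold at 2 h (adjusted p = 3.30e-08). At 8 h it was not called (-0.17 ± 0.22 (SE), adjusted p = 0.666).

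**Figure D2:**
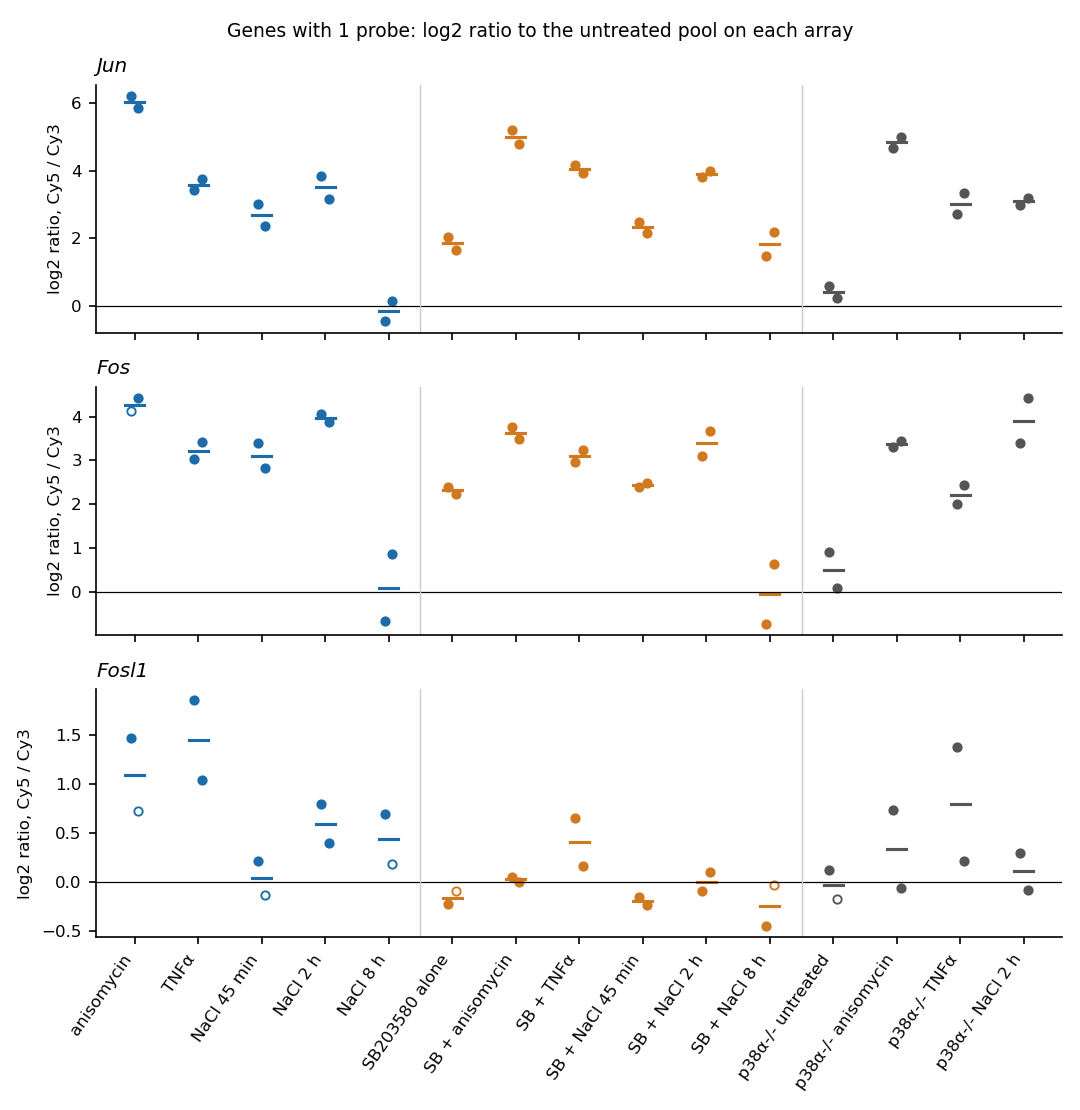
Log2 ratio to the pool (y axis) of Jun, Fos and Fosl1 on each of the 2 arrays of the 15 groups (x axis). Points are arrays (open where the spot was marked as an outlier) and short lines are group means: Jun was highest with anisomycin (6.21 and 5.85), and both Jun and Fos lay above the pool with SB203580 alone.

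Fos, the subunit that gives the AP-1 dimer much of its stability on DNA, read 4.13 and 4.41 with anisomycin (the first value marked as an outlier), 3.03 and 3.42 with TNFα, 3.40 and 2.82 at 45 min of NaCl, 4.05 and 3.87 at 2 h and -0.66 and 0.88 at 8 h. The first 4 groups all lay above 2.8, and the 8 h arrays lay on both sides of 0. Fos rose 9.36-fold with TNFα (3.23 ± 0.33 (SE), adjusted p = 1.35e-05, gene fit), 8.63-fold with NaCl for 45 min (adjusted p = 7.00e-05) and 15.6-fold after 2 h (adjusted p = 1.20e-06). With anisomycin it was 19.3-fold in the probe fit (4.27 ± 0.32 (SE), adjusted p = 2.10e-07), and at 8 h it was not called (0.11 ± 0.33 (SE), adjusted p = 0.869).

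The pool channel of Fos was not steady, although the same pool was on every array. Relative to the median of the array, the log2 Cy3 signal of the Fos probe was 1.71 and 0.55 on the anisomycin arrays, -0.90 and -1.25 with NaCl for 2 h, -1.55 and -1.33 with TNFα and -2.14 and -2.70 with NaCl for 8 h. The sample (Cy5) signal followed the same order, from 5.86 and 5.00 with anisomycin to -2.78 and -1.81 at 8 h. The SD of the Cy3 signal over the 30 arrays was 0.89 for Fos and 0.34 for Jun, beside a median of 0.35 over the 37124 probes above background in Cy3 on all arrays, of which 99.4% had a lower SD than Fos. What moved the pool signal was not tested. A ratio divides the sample by this signal, so for Fos the sample signal alone is also given for some differences between groups. It is not given for all that it moved. With TNFα, for example, the mean of Fos was 3.10 by ratio after SB203580 and 3.23 without. By sample signal these means were 1.27 and 1.82.

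**Figure D3:**
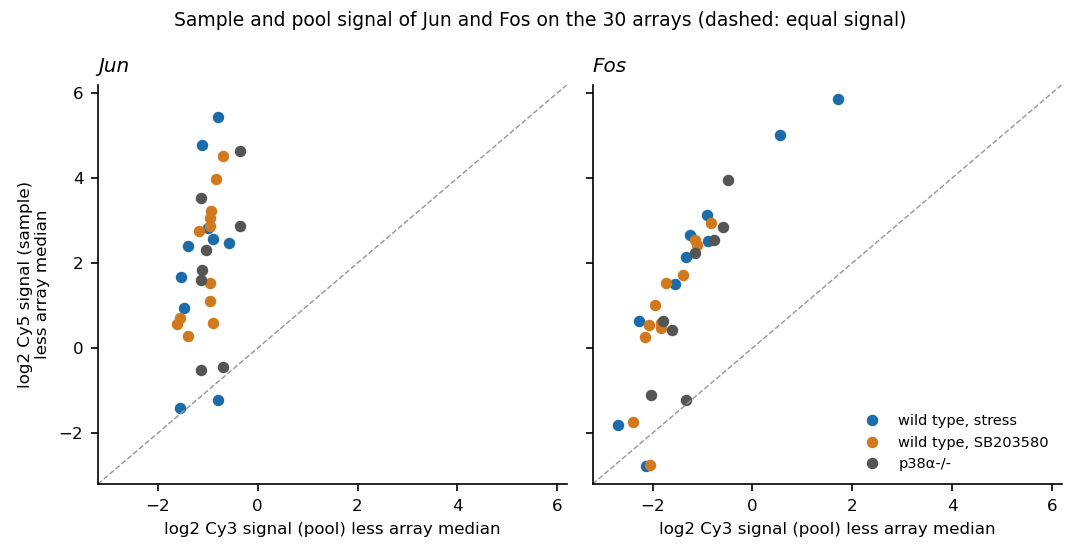
Log2 sample signal (Cy5, y axis) against log2 pool signal (Cy3, x axis) of Jun and Fos, each less the median of its array, with 1 point per array and the dashed line at equal signal. Jun spread from -1.62 to -0.35 in the pool channel, Fos from -2.70 to 1.71, and the 2 highest Fos points in both channels are the anisomycin arrays of wild type MEFs.

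Junb encodes a Jun protein that activates less strongly than Jun and can oppose it. Its probe A_51_P159201 read 2.98 and 2.78 with anisomycin (the first value marked as an outlier) and 2.83 and 2.58 with TNFα (the second marked). At 45 min of NaCl it read 1.24 and 0.47 (the second marked). At 2 h it read 1.82 and 1.63 and at 8 h 0.26 and -0.06, with anisomycin and TNFα well above the NaCl groups. In the probe fit it rose 7.36-fold with anisomycin (2.88 ± 0.18 (SE), adjusted p = 1.26e-08), 6.51-fold with TNFα (adjusted p = 2.54e-08), 1.81-fold with NaCl for 45 min (adjusted p = 0.00256) and 3.3-fold after 2 h (adjusted p = 5.44e-06). The 45 min call was lost without the first array (0.47, adjusted p = 0.271). Probe A_51_P159194 was called in none of the 36 comparisons. The gene fit, which mixes both probes, did not call Junb with TNFα (0.83 ± 0.31 (SE), adjusted p = 0.103) or NaCl for 45 min (0.77 ± 0.31 (SE), adjusted p = 0.129). It called Junb after 2 h of NaCl (1.29 ± 0.31 (SE), adjusted p = 0.0172) from 1 array with both probes and 1 with the moving probe alone. That call was lost without the first array (1.63, adjusted p = 0.0985) or the second (0.94, adjusted p = 0.213).

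Fosl1 read 1.86 and 1.04 with TNFα, 1.47 and 0.73 with anisomycin (the second value marked), 0.21 and -0.14 at 45 min of NaCl, 0.80 and 0.40 at 2 h and 0.69 and 0.19 at 8 h. The TNFα and anisomycin arrays overlapped. Fosl1 rose 2.73-fold with TNFα (1.45 ± 0.27 (SE), adjusted p = 0.0053, gene fit), a call that was lost without the first TNFα array (1.04, adjusted p = 0.149). With anisomycin the probe fit called it (1.10 ± 0.26 (SE), adjusted p = 0.00458), and without the first array it was not called (0.73, adjusted p = 0.276). After 2 h of NaCl it was not called (0.60 ± 0.27 (SE), adjusted p = 0.184, gene fit), but was with the replicate number as a block (adjusted p = 0.0326).

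Fosb, a Fos-like subunit known for a stable splice form in neurons, moved on probe A_51_P138378, which read 2.05 and 0.97 with anisomycin, 1.01 and 0.17 with TNFα, 0.58 and -0.01 at 45 min of NaCl, 0.94 and 0.59 at 2 h and 0.20 and -0.02 at 8 h. Of these values the first with anisomycin, the second with TNFα, the second at 45 min and both at 2 h were marked as outliers. The anisomycin and TNFα arrays overlapped. With TNFα it was not called (adjusted p = 0.0805), and was with the replicate block (adjusted p = 0.025). The probe fit called the rise with anisomycin (1.51 ± 0.23 (SE), adjusted p = 1.97e-04), which was lost without the first, marked array (0.97, adjusted p = 0.0622), and that after 2 h of NaCl (0.76 ± 0.23 (SE), adjusted p = 0.0291), which was lost without the first array (0.59, adjusted p = 0.412) or the second (0.94, adjusted p = 0.0741). Probe A_52_P109010 was called at 0.42 ± 0.13 (SE), adjusted p = 0.028 with anisomycin and 0.56 ± 0.13 (SE), adjusted p = 0.00603 with TNFα, and each call was lost without either array of its group (0.38 to 0.60, adjusted p from 0.0851 to 0.201).

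Fosl2 probe A_52_P484903 read 1.90 and 1.54 with anisomycin and 1.60 and 1.16 with TNFα, above both NaCl at 45 min (0.41 and 0.01) and at 2 h (0.69 and 0.02). It rose 3.3-fold with anisomycin (1.72 ± 0.23 (SE), adjusted p = 6.23e-05, probe fit) and 2.61-fold with TNFα (adjusted p = 4.81e-04). Both anisomycin values, the second TNFα value and both values at 45 min of NaCl were marked as outliers. The gene fit could test Fosl2 with neither anisomycin nor TNFα. After 8 h of NaCl the arrays of this probe read 0.41 and 1.12, the first value marked. It was the 1 member probe called at 8 h (0.76 ± 0.23 (SE), adjusted p = 0.0237), and the call was lost without the second array (0.41, adjusted p = 0.477). Probe A_51_P507242 lay below 0 with anisomycin (-0.76 and -0.49) and TNFα (-0.40 and -0.69) and was not called in any comparison.

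Over the members, the gene fit could test 1 gene with anisomycin, 4 with TNFα, 3 with NaCl at 45 min, 6 at 2 h and 4 at 8 h, and called 1, 3, 2, 3 and 0 of them higher and none lower. The third gene beside Jun and Fos was Fosl1 with TNFα and Junb with NaCl for 2 h. Over all genes tested, 5.72% were called higher with anisomycin, 5.25% with TNFα, 4.69% with NaCl at 45 min, 5.24% at 2 h and 11.0% at 8 h. The probe fit called 7, 6, 3, 4 and 1 of the 9 probes higher, beside 7.33%, 7.07%, 5.55%, 7.49% and 9.63% of all 41174 probes. At 8 h, no member had an unadjusted p under 0.05 in the gene fit and 1 probe did in the probe fit. These 5 comparisons share the pool.

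SB203580 without any stress was set against the pool to ask whether the inhibitor itself moved the genes. Jun read 2.05 and 1.64 and Fos 2.40 and 2.25, all 4 values above the pool. Jun rose 3.59-fold (1.84 ± 0.22 (SE), adjusted p = 6.21e-05) and Fos 5-fold (2.32 ± 0.33 (SE), adjusted p = 2.30e-04), 2 of the 3 members tested by the gene fit, where 14.7% of all genes were called higher. In the probe fit the same 2 of 9 probes were called, beside 14.9% of all probes. Junb probe A_51_P159201 read -0.34 and -0.28 and Fosl1 -0.23 and -0.10, and neither was called.

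Untreated p38α-/- MEFs had Jun at 0.60 and 0.22 and Fos at 0.91 and 0.09, values near the pool. The gene fit called none of the 4 members tested, and none had an unadjusted p under 0.05. Of all 16890 genes tested, 1354 were called higher and 1175 lower. In the probe fit none of 9 was called and 1 had a p under 0.05, namely Fosl2 probe A_51_P507242 (-0.51 and -0.73). Of all 41174 probes, 3452 were called higher and 6479 lower. The difference between the unstressed arms was not tested.

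At matched stress and time, arrays with and without SB203580 were compared next. Jun with anisomycin read 5.21 and 4.78 after SB203580 against 6.21 and 5.85 without, and did not pass the test (-1.04 ± 0.31 (SE), adjusted p = 1). With TNFα it read 4.15 and 3.92 against 3.43 and 3.74, with NaCl for 45 min 2.47 and 2.17 against 3.02 and 2.35, and with NaCl for 2 h 3.82 and 3.99 against 3.84 and 3.17, with none of these differences called. After 8 h of NaCl, Jun read 1.46 and 2.18 with the inhibitor and -0.46 and 0.13 without. It was 3.96-fold higher with SB203580 (1.99 ± 0.31 (SE), adjusted p = 0.0103), though not without the second inhibitor array (1.62, adjusted p = 0.137), and in the probe fit the call was also lost without either array of NaCl alone (1.69 and 2.28, adjusted p = 0.0876 and 0.0576). On the sample signal alone the difference was 1.89 ± 0.50 (SE), adjusted p = 1, and 0.0754 with the replicate block, so that it was not called. This was the 1 call among the 4 members tested at 8 h, beside 0.0928% of all genes and, in the probe fit, 1 of 9 probes beside 0.0437%. The arrays with SB203580 at 8 h overlapped those with SB203580 alone.

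Junb with anisomycin was lower after SB203580: probe A_51_P159201 read 1.01 and 0.62 against 2.98 and 2.78, with no overlap (0.62 and 2.98 marked as outliers). It was 4.18-fold lower (-2.06 ± 0.25 (SE), adjusted p = 9.22e-04, probe fit), 1 of 9 member probes, where 0.0316% of all probes were called lower. With TNFα the same probe read 2.16 and 2.13 against 2.83 and 2.58 and was not called (-0.56 ± 0.25 (SE), adjusted p = 1). The gene fit called no member lower with SB203580 under any of the 5 stresses, at most 1 member having an unadjusted p under 0.05 in each. It tested 1, 4, 3, 6 and 4 members with anisomycin, TNFα and NaCl at 45 min, 2 h and 8 h. Of all genes, it called 3 of 14699, 0 of 14367, 0 of 12180, 0 of 16729 and 17 of 15082 lower.

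Of Fos with anisomycin, the ratio was 3.77 and 3.49 after SB203580 and 4.13 and 4.41 without, a difference of -0.64 ± 0.46 (SE), adjusted p = 1 in the probe fit. On the sample signal alone the values were 2.94 and 2.42 against 5.86 and 5.00, a difference of -2.75 ± 0.56 (SE), adjusted p = 0.319. Neither was called.

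Stressed p38α-/- MEFs were compared with wild type MEFs under the same stress. Jun with anisomycin read 4.66 and 5.00 in p38α-/- MEFs and 6.21 and 5.85 in wild type MEFs, with no overlap, but did not pass the test (-1.20 ± 0.31 (SE), adjusted p = 0.0673), and did with the replicate number as a block (adjusted p = 0.0343). Within the 1 scanning batch that holds both genotypes the difference was -1.19. Such within-batch differences, here and below, rest on 1 array a group and have no replication. With TNFα Jun read 2.71 and 3.33 and with NaCl for 2 h 2.98 and 3.20, neither called. Fos in p38α-/- MEFs read 3.31 and 3.43 with anisomycin, 2.01 and 2.43 with TNFα and 3.39 and 4.42 with NaCl for 2 h, and none of these differed from the wild type beyond the test. On the sample signal alone, Fos with anisomycin was -2.74 ± 0.56 (SE) from the wild type (adjusted p = 0.0594, and 0.0298 with the block), beside -0.90 by ratio.

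Junb was again lower with anisomycin: probe A_51_P159201 read 1.27 and 1.23 in p38α-/- MEFs against 2.98 and 2.78 in wild type MEFs. It was 3.09-fold lower (-1.63 ± 0.25 (SE), adjusted p = 0.00232, probe fit), and -1.51 within the shared scanning batch. This was 1 of 9 member probes, beside 0.644% of all probes. With TNFα it read 2.44 and 2.17 and with NaCl for 2 h 1.32 and 2.27, and neither was called. Fosb probe A_51_P138378 read 0.41 and 0.29 with anisomycin in p38α-/- MEFs, was not called (-1.16 ± 0.33 (SE), adjusted p = 0.121) and was called with the block (adjusted p = 0.0211), with a within-batch difference of -0.56. The gene fit (limma) called none of 11 member tests over the 3 stresses, of which 2 had an unadjusted p under 0.05 (Jun with anisomycin and Fos with TNFα), and with the replicate block it called 1. Of all genes, without the block, it called 80 higher and 117 lower of 15474 with anisomycin. With TNFα these were 8 and 51 of 14265, and with NaCl for 2 h 46 and 77 of 17645. For both arms the Junb result with anisomycin was called on the ratio, whereas on the sample signal alone the differences were -2.00 (adjusted p = 0.347, or 0.0491 with the replicate block) with SB203580 and -1.45 (adjusted p = 0.406, or 0.0673) in p38α-/- MEFs. These comparisons share the wild type anisomycin arrays.

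Fosl1 in the SB203580 arm read 0.06 and 0.00 with anisomycin, 0.66 and 0.17 with TNFα, -0.15 and -0.23, -0.09 and 0.10 and -0.45 and -0.03 with NaCl for 45 min, 2 h and 8 h. In p38α-/- MEFs it read 0.12 and -0.17 untreated, 0.73 and -0.06 with anisomycin, 1.38 and 0.22 with TNFα and 0.30 and -0.08 with NaCl for 2 h. None of these groups differed by the test from wild type MEFs under the same stress, and the differences with TNFα were -1.04 ± 0.36 (SE), adjusted p = 1 for SB203580 and -0.65 ± 0.36 (SE), adjusted p = 0.697 for p38α-/- MEFs (probe fit).

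Fosl2 probe A_52_P484903 read 0.71 and 0.11 with anisomycin and 0.85 and 0.13 with TNFα after SB203580, and 1.15 and 0.77 and 0.84 and 0.77 in p38α-/- MEFs, all below the wild type arrays with anisomycin but not called (differences of -1.31 ± 0.33 (SE), adjusted p = 0.79 and -0.76 ± 0.33 (SE), adjusted p = 0.367 with anisomycin). Fosb probe A_51_P138378 read 0.36 and -0.01 with anisomycin and 0.11 and 0.01 with TNFα after SB203580. Probe A_52_P109010 was -0.31 and -0.83 with NaCl for 2 h in p38α-/- MEFs against 0.26 and 0.05 in wild type MEFs, a difference that was not called (-0.73 ± 0.19 (SE), adjusted p = 0.0889).

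Induction within an arm was then measured against the unstressed cells of that arm, which for SB203580 is the group titled 2 h at every stress time. After SB203580, Jun still rose with anisomycin by 3.15 ± 0.31 (SE), adjusted p = 8.58e-05, with TNFα by 2.19 ± 0.31 (SE), adjusted p = 0.00191 and with NaCl for 2 h by 2.06 ± 0.31 (SE), adjusted p = 6.77e-04. With NaCl for 45 min it read 2.47 and 2.17 against 2.05 and 1.64 for SB203580 alone and was not called (0.48 ± 0.31 (SE), adjusted p = 0.895). In the probe fit the TNFα call was lost without the second SB203580 array (1.99, adjusted p = 0.0525) or the first TNFα array (2.07, adjusted p = 0.0703). Fos was called in none of the early comparisons with SB203580, from 0.12 ± 0.46 (SE), adjusted p = 1 with NaCl for 45 min to 1.31 ± 0.46 (SE), adjusted p = 0.782 with anisomycin. On the sample signal alone the Fos difference was 2.31 ± 0.56 (SE), adjusted p = 1 with anisomycin and 1.76 ± 0.56 (SE), adjusted p = 0.49 with NaCl for 2 h, beside 1.07 by ratio at 2 h. After 8 h of NaCl Fos fell below SB203580 alone, from 2.40 and 2.25 to -0.71 and 0.64 (-2.36 ± 0.46 (SE), adjusted p = 0.00409), a call lost without the first of the 8 h arrays (-1.68, adjusted p = 0.0864) or the first SB203580 array (-2.28, adjusted p = 0.0519), or on the sample signal alone (-2.62 ± 0.56 (SE), adjusted p = 0.0538, and 0.0163 with the block). Junb probe A_51_P159201 rose with TNFα by 2.45 ± 0.25 (SE), adjusted p = 7.23e-05 and with NaCl for 2 h by 1.29 ± 0.25 (SE), adjusted p = 0.00625 in the probe fit, the latter lost without the first SB203580 array (1.26, adjusted p = 0.0822) or the second 2 h array (1.23, adjusted p = 0.0654). The calls of Jun with TNFα and with NaCl for 2 h and of Junb at 2 h were lost on the sample signal alone (adjusted p = 0.424, 0.141 and 0.564, and with the block 0.0061, 0.00457 and 0.146).

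In p38α-/- MEFs, Jun rose with anisomycin by 4.42 ± 0.31 (SE), adjusted p = 4.12e-07, with TNFα by 2.61 ± 0.31 (SE), adjusted p = 3.18e-04 and with NaCl for 2 h by 2.68 ± 0.31 (SE), adjusted p = 1.30e-04. Fos rose with NaCl for 2 h by 3.40 ± 0.46 (SE), adjusted p = 0.00116 and with anisomycin by 2.87 ± 0.46 (SE), adjusted p = 0.0216, of which the anisomycin call was lost without any 1 of its 4 arrays (2.46 to 3.28). By sample signal alone these Fos differences were 4.25 ± 0.56 (SE), adjusted p = 0.00294 and 3.86 ± 0.56 (SE), adjusted p = 0.0125, where 0.0899% and 0.0146% of all probes were called higher. With TNFα Fos was not called (1.71 ± 0.46 (SE), adjusted p = 0.751). Junb probe A_51_P159201 rose with TNFα by 2.36 ± 0.25 (SE), adjusted p = 9.92e-05 and with NaCl for 2 h by 1.85 ± 0.25 (SE), adjusted p = 7.29e-04, and was not called with anisomycin (1.31 ± 0.25 (SE), adjusted p = 0.1), though it was with the block (adjusted p = 0.0395). The calls of Jun with TNFα and Junb with NaCl for 2 h were lost on the sample signal alone (adjusted p = 0.231 and 0.367, and with the block 0.00285 and 0.0629).

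The gene fit called 1 of 2 members tested with anisomycin after SB203580 (0.014% of all genes higher), 1 of 2 with TNFα (0.0913%), 1 of 3 with NaCl for 2 h (0.891%) and 1 of 3 lower at 8 h (5.76% lower). In p38α-/- MEFs it called 2 of 4 with anisomycin (0.0786%), 1 of 4 with TNFα (0.078%) and 2 of 4 with NaCl (0.572%). The probe fit called 1, 2 and 2 of 9 probes higher in the first 3 and 1 lower at 8 h, beside 0.0291%, 0.0923%, 0.869% and 4.58% of all probes. In p38α-/- MEFs it called 2, 2 and 3, beside 0.0461%, 0.0753% and 0.542%. With NaCl for 45 min after SB203580 no member was called and none of 3 had an unadjusted p under 0.05. There, 3 of 13796 genes were called higher and 3 lower, and 5 of 41174 probes higher and 10 lower.

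**Figure D4:**
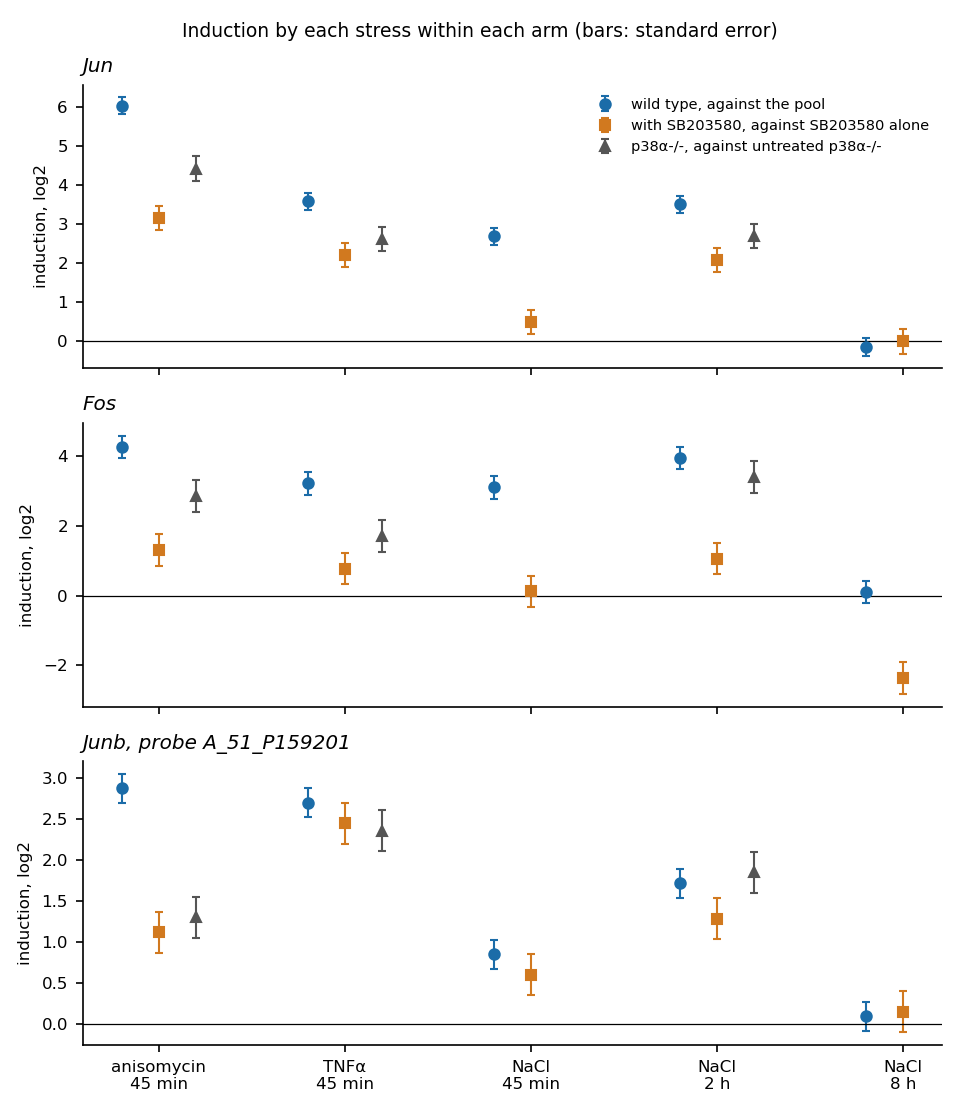
Induction in log2 units (y axis) of Jun, Fos and Junb probe A_51_P159201 by each stress (x axis), in wild type MEFs against the pool, after SB203580 against SB203580 alone, and in p38α-/- MEFs against untreated p38α-/- MEFs. Points are estimates of the probe fit and bars are standard errors, and p38α-/- MEFs were not exposed to NaCl for 45 min or 8 h: Fos was induced by 4.27 with anisomycin in wild type MEFs and by 1.31 after SB203580.

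Whether induction differed between arms was tested as a difference of inductions, the induction in an arm less that in wild type MEFs. For SB203580 this subtracts the higher unstressed level of Jun and Fos given above, and all 5 differences share the SB203580 arrays and the pool. The difference for Jun was -2.88 ± 0.38 (SE), adjusted p = 0.00314 with anisomycin and -2.21 ± 0.38 (SE), adjusted p = 0.0347 with NaCl for 45 min (gene fit), so that its induction was smaller after SB203580. With TNFα and NaCl for 2 h the differences were -1.39 ± 0.38 and -1.44 ± 0.38, called in the probe fit (adjusted p = 0.0318 and 0.0288) but not in the gene fit (adjusted p = 0.0893 and 0.0582, the latter 0.0354 with the replicate block). The stressed level of Jun was not lower with the inhibitor there, with means of 4.04 against 3.59 with TNFα and 3.90 against 3.51 at 2 h. Each difference subtracts the ratio of 1.84 with SB203580 alone. At 8 h the difference was 0.14 ± 0.38 and was called in neither fit.

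The induction of Fos after SB203580 differed from that in wild type MEFs by -2.89 ± 0.57 (SE), adjusted p = 0.0205 with NaCl for 2 h (gene fit). The 4 other differences were -2.96 ± 0.56 with anisomycin, -2.44 ± 0.56 with TNFα, -2.98 ± 0.56 with NaCl for 45 min and -2.47 ± 0.56 at 8 h. These were called in the probe fit (adjusted p = 0.0122, 0.015, 0.0263 and 0.0304). In the gene fit anisomycin could not be tested, and the other 3 missed the threshold (adjusted p = 0.0591, 0.0553 and 0.0642) and passed it with the replicate block (adjusted p = 0.0278, 0.0188 and 0.0313). All 5 differences lay between -2.98 and -2.44. Each of them is the difference at matched stress less the same ratio of 2.32 with SB203580 alone, which is the larger part of each. Mean Fos ratios with and without the inhibitor were 3.63 and 4.27 with anisomycin and 3.10 and 3.23 with TNFα. With NaCl they were 2.45 and 3.11 at 45 min, 3.39 and 3.96 at 2 h and -0.04 and 0.11 at 8 h. The differences of inductions also include the wild type ratio to the pool, whose Fos signal was not steady. They could therefore not be taken on the sample signal alone.

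For Junb, probe A_51_P159201 gave -1.75 ± 0.30 (SE), adjusted p = 0.00912 for SB203580 and -1.57 ± 0.30 (SE), adjusted p = 0.00651 for p38α-/- MEFs (probe fit), and with TNFα -0.25 ± 0.30 and -0.34 ± 0.30, neither called. In p38α-/- MEFs the difference for Jun with anisomycin was -1.61 ± 0.38 (SE), which was called in the probe fit (adjusted p = 0.0178) and not in the gene fit (adjusted p = 0.0632, or 0.0295 with the block). Within the shared scanning batch, with 1 array a group, the differences were -1.37 for Junb and -1.79 for Jun. Fos differences in p38α-/- MEFs were -1.40 ± 0.56 with anisomycin, -1.51 ± 0.56 with TNFα and -0.56 ± 0.56 with NaCl for 2 h, none called.

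The gene fit called 1 of 1 member tested for anisomycin after SB203580 (beside 0.347% of all genes lower), 1 of 2 for NaCl at 45 min (0.0681%) and 1 of 3 at 2 h (1.03%), 3 calls in all, and 8 with the replicate block. The probe fit called 3, 2, 2, 2 and 1 of 9 probes lower for anisomycin, TNFα and NaCl at 45 min, 2 h and 8 h, beside 1.78%, 1.46%, 0.134%, 2.8% and 1.16% of all probes. With the block it also called Fosb probe A_51_P138378 with anisomycin, for SB203580 (adjusted p = 0.031) and for p38α-/- MEFs (adjusted p = 0.0235). For anisomycin in p38α-/- MEFs it called 2 without the block, beside 0.906%. Of these 12 probe calls, that of Jun with anisomycin after SB203580 remained when each array was left out in turn, although in the gene fit it was lost without the first SB203580 array (-2.67, adjusted p = 0.051). The 9 other probe calls for SB203580 were each lost without that same array, with differences then from -2.91 to -1.19, and so were the gene fit calls of Jun with NaCl for 45 min (-2.00) and Fos with NaCl for 2 h (-2.81). The calls for p38α-/- MEFs were lost without the first wild type anisomycin array, with Junb then at -1.47 and Jun at -1.43 (adjusted p = 0.0628 and 0.139), and that of Jun also without the first array of either p38α-/- group.

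Between stresses in wild type MEFs, Jun was 5.44-fold higher with anisomycin than with TNFα (2.44 ± 0.31 (SE), adjusted p = 5.09e-04) and 10.2-fold higher than with NaCl at 45 min (3.34 ± 0.31 (SE), adjusted p = 1.38e-05). Each was the 1 member tested by the gene fit, beside 0.113% and 0.265% of all genes higher. In the probe fit Junb probe A_51_P159201 was also higher with anisomycin than with NaCl at 45 min (2.02 ± 0.25 (SE), adjusted p = 4.37e-04) and with TNFα than with NaCl (1.85 ± 0.25 (SE), adjusted p = 0.00119). The probe fit called 1 of 9 probes for anisomycin over TNFα, 2 for anisomycin over NaCl and 1 for TNFα over NaCl, beside 0.068%, 0.248% and 0.233% of all probes. With the replicate block, anisomycin over NaCl also called Fosl2 probe A_52_P484903 (adjusted p = 0.027) and Fosb probe A_51_P138378 (adjusted p = 0.0483), and TNFα over NaCl called Fosl1 (adjusted p = 0.0177).

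Fos ratios with anisomycin and TNFα differed by 1.05 ± 0.46 (SE), adjusted p = 1, whereas on the sample signal alone Fos was 3.61 ± 0.56 (SE) higher with anisomycin (adjusted p = 0.00571), where 0.017% of all probes were called. Against NaCl at 45 min the ratio gave 1.16 ± 0.46 (SE), adjusted p = 0.926 and the sample signal 3.86 ± 0.56 (SE), adjusted p = 0.00434, beside 0.085%. For Jun the sample signal alone gave 2.63 and 3.40, close to its ratios, of which that over TNFα was then not called (adjusted p = 0.053, or 8.25e-04 with the block). Junb with anisomycin and with TNFα over NaCl was not called on the sample signal either (adjusted p = 0.195 and 0.418, or 0.0292 and 0.0712 with the block).

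Along the NaCl series, no member differed between 45 min and 2 h by the test, with 1 of 3 at an unadjusted p under 0.05 in the gene fit (Jun) and 2 of 9 probes in the probe fit (Jun and Junb). Between these times 2 of 12968 genes were called higher and 5 lower, and 29 of 41174 probes higher and 39 lower. Jun went from 3.02 and 2.35 to 3.84 and 3.17 and Junb probe A_51_P159201 from 1.24 and 0.47 to 1.82 and 1.63. From 2 h to 8 h, Jun fell 12.8-fold (-3.67 ± 0.31 (SE), adjusted p = 4.93e-06), Fos 14.4-fold (-3.85 ± 0.46 (SE), adjusted p = 8.37e-05) and Junb 3.08-fold (-1.62 ± 0.25 (SE), adjusted p = 4.96e-04, probe fit). The gene fit called 2 of 4 members lower, beside 4.47% of all genes, and the probe fit 3 of 9 probes, beside 3.79%. By sample signal alone the Fos difference was larger, -5.19 ± 0.56 (SE), adjusted p = 5.01e-05, where 0.226% of all probes were called lower, while Jun gave -3.56 and Junb was not called (adjusted p = 0.195, or 0.0453 with the block). After SB203580, Jun still read 1.46 and 2.18 at 8 h while Fos read -0.71 and 0.64.

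Over all 15 groups, the order of Jun began with anisomycin (mean 6.03), SB203580 with anisomycin (4.99) and p38α-/- with anisomycin (4.83), of which the first stood apart and the other two overlapped. It ended with SB203580 alone (1.84) and SB203580 with NaCl for 8 h (1.82), which overlapped, then untreated p38α-/- MEFs (0.41) and NaCl for 8 h (-0.17). Fos was ordered less sharply: the 8 groups from NaCl for 2 h (3.96) down to SB203580 with TNFα (3.10) each overlapped the next, and the lowest 3 were untreated p38α-/- MEFs (0.50), NaCl for 8 h (0.11) and SB203580 with NaCl for 8 h (-0.04). Junb probe A_51_P159201 was highest with anisomycin (2.88) and TNFα (2.70) in wild type MEFs, then with TNFα in p38α-/- MEFs (2.31) and after SB203580 (2.14), and lowest with SB203580 alone (-0.31).

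The genes whose 15 group means were most like those of a member, among 464 genes measured in every group and varying by an SD of at least 0.5, were ranked by Pearson's r, which is a description over groups that share the pool. For Jun they were Ier5l (0.85), Plk3 (0.82) and 3110018C07Rik (0.74), and the same 3 led over the 30 single arrays. For Fos they were Ier2 (0.81), Gadd45b (0.80) and Ptpn2 (0.78), of which Gadd45b (0.77) led over single arrays as well. For Junb probe A_51_P159201 they were Trib1 (0.92), Axud1 (0.88) and Zfp36l1 (0.78), and for Fosl1 they included Trib1 (0.89) and Olr1 (0.79). For Fosb probe A_51_P138378 they were Axud1 (0.89), Epha2 (0.82) and Smgc (0.74), and for Fosl2 probe A_52_P484903 Btg2 (0.88), 3110018C07Rik (0.80) and 1700074P13Rik (0.78). For the other probes of Junb, Fosb and Fosl2 (A_51_P159194, A_52_P109010 and A_51_P507242) the leading genes were Olfr1015 (0.80), 4930431L04Rik (0.85) and Eef1a1 (0.82). Over single arrays Olfr1015 and Eef1a1 led as well, whereas 4930431L04Rik was at place 119 (0.40).

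Of 22 other immediate early genes, such as Egr1, Btg2 and Zfp36, most of those tested were called higher at the early times. In the gene fit 12 of 12, 8 of 12, 6 of 11, 11 of 19 and 6 of 17 rose with anisomycin, TNFα and NaCl at 45 min, 2 h and 8 h, with medians of 1.79, 1.42, 1.23, 1.16 and 0.29 beside medians from 0.00 to 0.01 over all genes. Of all genes, 5.72%, 5.25%, 4.69%, 5.24% and 11.0% were called higher in these 5 comparisons. With anisomycin the highest were Btg2, an antiproliferative factor (4.80 ± 0.27, adjusted p = 4.03e-09), the zinc finger factor Egr1 (4.71 ± 0.25, adjusted p = 1.27e-08) and Rhob, a small GTPase (3.04 ± 0.20, adjusted p = 2.59e-07). With TNFα Zfp36, which binds and destabilises AU-rich mRNA, led (3.09 ± 0.19, adjusted p = 1.39e-08), and with NaCl for 2 h the MAP kinase phosphatase Dusp1 (3.42 ± 0.15, adjusted p = 6.53e-08). With SB203580 alone 4 of 14 were called higher, where 14.7% of all genes were, among them Rhob (1.06 ± 0.20, adjusted p = 0.00165) and Egr1 (0.92 ± 0.25, adjusted p = 0.0144). In the difference of inductions by anisomycin after SB203580, 3 of 11 were called lower and none higher, beside 0.347% of all genes lower, namely Btg2 (-3.12 ± 0.46, adjusted p = 0.00814), Egr1 (-3.11 ± 0.44, adjusted p = 0.00814) and Rhob (-1.69 ± 0.34, adjusted p = 0.0451). The same 3 of 11 were lower in that difference for p38α-/- MEFs, beside 0.122% of all genes, at -2.53 ± 0.46, adjusted p = 0.0266, -2.09 ± 0.44, adjusted p = 0.0426 and -1.83 ± 0.34, adjusted p = 0.0338. Dusp1 and Ptgs2 are also on the list of AP-1 targets below, and Maff and Atf3 are on that of partners.

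Among AP-1 partners and related leucine zipper factors, 2 of 9, 1 of 9, 0 of 10, 3 of 13 and 3 of 12 were called higher in the 5 stresses, with medians of -0.15, 0.09, 0.01, 0.18 and 0.13, beside the shares of all genes just given, 11.0% at 8 h among them. The small Maf proteins, which lack an activation domain, led: Maff with anisomycin (2.12 ± 0.20, adjusted p = 3.23e-05) and after 2 h (1.98 ± 0.20, adjusted p = 4.10e-05) and 8 h of NaCl (1.91 ± 0.20, adjusted p = 1.31e-05), and Mafk after 8 h (1.86 ± 0.21, adjusted p = 5.22e-06). Atf3, a repressor induced by stress, rose after 2 h of NaCl (1.16 ± 0.16, adjusted p = 0.00211). JunD, the third Jun protein, listed as Jund1, was called after 8 h of NaCl (0.52 ± 0.16, adjusted p = 0.0352), and like Jun was higher there with SB203580 than without (1.39 ± 0.23, adjusted p = 0.0371).

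Of the kinases and factors upstream of Jun and Fos, the gene fit called 0 of 16, 0 of 12, 1 of 9, 2 of 16 and 3 of 18 higher and 1, 1, 2, 0 and 5 lower, with medians of -0.11, -0.10, -0.19, -0.06 and 0.05. Of all genes 5.72%, 5.25%, 4.69%, 5.24% and 11.0% were called higher and 6.28%, 5.72%, 5.19%, 4.69% and 11.2% lower. The p38 substrate kinase Mapkapk2 fell with anisomycin (-0.39 ± 0.10, adjusted p = 0.0184) and NaCl for 45 min (-0.52 ± 0.10, adjusted p = 0.00442), and Mef2d, a factor that binds MEF2 sites such as that in the Jun window, fell with TNFα (-1.02 ± 0.23, adjusted p = 0.0122). After 8 h of NaCl Mapk14 itself rose (1.11 ± 0.24, adjusted p = 0.00784), while Mapk3 (ERK1) fell (-0.77 ± 0.12, adjusted p = 4.13e-04). Of 20 genes known as AP-1 targets, 2 of 15, 2 of 13, 1 of 11, 5 of 16 and 9 of 17 were called higher, with medians of -0.01, 0.25, 0.31, 0.27 and 0.61, beside the same shares of all genes. The prostaglandin synthase Ptgs2 was called with anisomycin (1.61 ± 0.37, adjusted p = 0.00831) and after 45 min (1.57 ± 0.37, adjusted p = 0.0115), 2 h (3.05 ± 0.37, adjusted p = 4.45e-05) and 8 h of NaCl (2.92 ± 0.37, adjusted p = 1.60e-05), and the matrix protein Spp1 (osteopontin) was highest at 8 h (3.58 ± 0.37, adjusted p = 2.63e-06), when Jun, Fos and Junb were back near the pool. Cyclin D1 (Ccnd1) was called at 8 h (1.17 ± 0.22, adjusted p = 7.87e-04) and in untreated p38α-/- MEFs (1.30 ± 0.22, adjusted p = 9.17e-04).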

How the data were processed

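Whole-culture RNA of 30 samples was amplified and hybridised to two-colour oligonucleotide arrays, each against the pool. The authors scanned the arrays with Agilent Feature Extraction (9.1 per the labels, 8.1.1.1 per the file headers), which subtracted no local background, removed spatial trends and normalized the dyes (linear and LOWESS). The deposited log10 ratios of Cy5 to Cy3 were multiplied to log2. The deposited processed Cy5 and Cy3 intensity was log2 transformed, less the median of the array. The deposited log2 values of the series matrix had slopes of 0.92 to 1.00 on these ratios and served as an alternative. Spots were averaged to probes and to 21689 genes. Limma 3.58.1 (R 4.3.3) fitted 15 group means over 30 arrays (15 residual degrees of freedom), with p-values adjusted over all genes or probes measured on every array compared. The script was checked on simulated data. The members and the gene lists were chosen with earlier results of these data known. All members are named. Genes named from a list for a comparison were picked from the 4 called with the largest change, fewer where fewer were called. Not all of these are named. A gene among those most like a member is not reported here.

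Deviations from the group means of same-numbered arrays had correlations of 0.22 to 0.66 in the 55 comparisons among wild type groups and 0.16 to 0.39 in the 6 among p38α-/- groups, all above 0.1, as were 3 of 44 across genotypes, so the replicate number was used as a block within a genotype. The scan records placed first wild type replicates in 1 batch, second ones with first p38α-/- replicates in another, and second p38α-/- replicates in the other two. The number of arrays limits the precision. Alternatives were the handling of outlier marks, background and normalization, the choice of probe, the samples in the fit, the replicate block, the scanning batch and leaving out each array.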

Additional observations from a re-analysis of the deposited data

Results flagged for a closer look

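Each result here is a difference of inductions that passed the test between arms, in log2 units (limma, probe fit, 2 arrays a group). For SB203580 against no inhibitor these were Jun with anisomycin (-2.88), TNFα (-1.39), NaCl for 45 min (-2.21) and NaCl for 2 h (-1.44). Fos differed with anisomycin (-2.96), TNFα (-2.44), NaCl for 45 min (-2.98), NaCl for 2 h (-2.89) and NaCl for 8 h (-2.47). Junb probe A_51_P159201 differed with anisomycin (-1.75). For p38α-/- against wild type MEFs, Junb probe A_51_P159201 (-1.57) and Jun (-1.61) differed with anisomycin. The values beside these are that Jun and Fos were raised by 1.84 and 2.32 with SB203580 alone, and that Jun with SB203580 and anisomycin was the 1 of these 12 calls that remained without any single array.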

How the results depend on the processing

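Having 2 arrays a group limits these results, and the pool is 1 control sample. Counts of member calls over each set of comparisons moved by more than 1.5 times as follows, and the cause was not tested except as stated. With outlier spots kept, the calls in stressed wild type MEFs went from 9 to 17, for SB203580 with stress against stress alone from 1 to 2, for p38α-/- against wild type MEFs from 0 to 2, for the difference of inductions from 3 to 14 and between stresses and times from 4 to 8. More members could be tested then. With the series matrix these were 18, 2, 3, 15 and 8. With the dimmest probe of each gene and outlier spots kept, they were 19, 2, 1, 12 and 7, and with the brightest probe 8 for the difference of inductions, or 10 with outlier spots kept (added after seeing the data, as were the dimmest probe and the sample signal alone). With normexp and loess, p38α-/- against wild type MEFs gave 1 and the difference of inductions 7, and with probes well above background alone the latter gave 7. The replicate block gave 1 and 8 for these, and no call in any set was lost with it.

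Fits on the compared groups alone, which leave 1 to 3 residual degrees of freedom, called 0 members in every set (limma), with 10 of 18 tests at an unadjusted p under 0.05 in stressed wild type MEFs, 2 of 7 for SB203580 alone and untreated p38α-/- MEFs, 5 of 18, 2 of 11, 15 of 25, 12 of 18 and 7 of 12 in the other sets in the order of the report. On the sample signal alone, SB203580 with stress against stress alone gave 0 calls of 30 tests (8 at an unadjusted p under 0.05), and stress within the arms gave 5 in place of 9. Of 23 member probe calls between arrays, 13 were lost on the sample signal alone, or 5 with the replicate block, all with the same direction.

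Leaving out 1 array gave 8 to 11 calls in stressed wild type MEFs, 2 to 2 for SB203580 alone and untreated p38α-/- MEFs, 0 to 1 for SB203580 with stress, 0 to 0 for p38α-/- against wild type MEFs, 8 to 9 within arms, 0 to 7 for the difference of inductions and 4 to 4 between stresses and times. The 0 for SB203580 with stress came without its second array of NaCl for 8 h. The difference of inductions gave 0 without the first array of SB203580 alone and 7 without the second. No member result changed direction among those called in either setting.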
